A study of Homo sapiens with 4 samples.

Results

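The 9 genes described here are 5 that encode secreted proteins of apocrine and luminal breast cells (PIP, AZGP1, SCGB2A2, SCGB1D2 and MUCL1) and 4 of the cytochrome P450 family 4 (CYP4X1, CYP4Z1, CYP4Z2P and CYP4B1). They were measured in BT474, a long-established line of human breast carcinoma cells that carries an ERBB2 amplification, on Affymetrix U133 Plus 2.0 arrays. The cells received vehicle or 0.5 mM AICAR, a nucleoside that is phosphorylated in cells to an AMP mimic and activates the kinase AMPK, for 24 h in fresh DMEM. Each group had 2 arrays, and nothing in the labels says that the 2 came from separate cultures, so errors and p-values measure the spread between these arrays, which may be technical. Every probe set annotated to exactly 1 of the 9 symbols was taken, which gave 10 of the array's 54675 probe sets, 1 per gene and 2 for CYP4B1. The genes were chosen by their AICAR-minus-vehicle differences on these same 4 arrays. Their differences are therefore given as a description, with no p-value. The fit over the whole array also returns a call for each of them, which is counted once against the array as a whole and supports nothing.

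Apocrine cells line sweat-type glands and appear in the breast as a secretory variant of luminal epithelium that responds to androgens. PIP, also called gross cystic disease fluid protein, and the mammaglobins are used as markers of breast origin in pathology. CYP4 enzymes add a hydroxyl group near the end of fatty acid chains, and CYP4Z1 is known for its expression in mammary tissue. CYP4Z2P is a duplicated copy of CYP4Z1 that is classed as a pseudogene.

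All 14 luminal epithelial markers looked at lay above the bound for dim probe sets (log2 5.21, the 30th percentile of mean values). Of 19 measured basal, stromal, endothelial and blood cell markers 5 were below it and 14 were not, so the bound alone does not separate the lists. Median levels on the 4 arrays were 12.42 to 12.62 (log2) for the luminal markers and 6.12 to 6.25 for the others. These markers bear on a luminal cell type and do not single out this line. In whole cultures, fewer cells of a type and less RNA per cell cannot be told apart. On RNA quality, the difference between the 3' and 5' control probe sets was -0.02 to 0.02 (log2) for GAPDH on the 4 arrays. For ACTB it was 0.28 to 0.29 on 3 arrays and 0.39 on AICAR replicate 2, and the part of this in the values below was not tested.

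The regions before the transcription starts are shown first, as a description of sequence that was not linked to the values. RefSeq (GRCh38.p14) had a start for 8 of the 9 genes, 2 starts for CYP4X1 and none in the table used for CYP4Z2P, so 9 windows of 250 bases before a start were searched on both strands. The search covered TATAAA, the core of the TATA box. It covered AGAACA, part of the element that androgen and glucocorticoid receptors bind, and AGGTCA, the core site of many other nuclear receptors. For forkhead factors it used TGTTTAC, and for STAT factors TTCNNNGAA. The E-box letters CACGTG were also searched. The cyclic AMP response element was searched as TGACGTCA. Matches are in capitals, and no 2 of them overlapped in these windows. The windows of PIP (chr7:143131827-143132076, plus strand), SCGB2A2 (chr11:62269908-62270157, plus strand), CYP4Z1 (chr1:47066981-47067230, plus strand) and CYP4B1 (chr1:46798796-46799045, plus strand) are 4 that held a match. That of MUCL1 (chr12:54854266-54854515, plus strand), a gene with lower values after AICAR, held none. The windows of SCGB1D2, with higher values after AICAR, and AZGP1, with lower values, also held none and are not printed.
PIP: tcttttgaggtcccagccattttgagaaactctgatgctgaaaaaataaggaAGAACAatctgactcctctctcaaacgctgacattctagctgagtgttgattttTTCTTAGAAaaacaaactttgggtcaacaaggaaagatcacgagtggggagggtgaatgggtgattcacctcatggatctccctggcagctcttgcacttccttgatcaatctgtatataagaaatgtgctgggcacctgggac
SCGB2A2: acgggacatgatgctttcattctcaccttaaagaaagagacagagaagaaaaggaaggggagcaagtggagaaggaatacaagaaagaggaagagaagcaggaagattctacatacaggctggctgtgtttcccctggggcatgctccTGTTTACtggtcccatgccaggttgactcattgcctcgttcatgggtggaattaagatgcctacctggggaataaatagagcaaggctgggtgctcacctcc
CYP4Z1: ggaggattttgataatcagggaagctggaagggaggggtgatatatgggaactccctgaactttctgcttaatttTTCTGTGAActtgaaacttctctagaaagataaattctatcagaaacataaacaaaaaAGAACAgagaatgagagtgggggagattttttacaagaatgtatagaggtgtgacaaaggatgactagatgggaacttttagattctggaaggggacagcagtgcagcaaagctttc
CYP4B1: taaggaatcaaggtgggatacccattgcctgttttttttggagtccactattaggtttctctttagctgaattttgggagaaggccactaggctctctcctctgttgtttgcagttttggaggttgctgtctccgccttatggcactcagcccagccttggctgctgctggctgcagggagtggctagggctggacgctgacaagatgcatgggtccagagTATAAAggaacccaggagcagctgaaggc
MUCL1: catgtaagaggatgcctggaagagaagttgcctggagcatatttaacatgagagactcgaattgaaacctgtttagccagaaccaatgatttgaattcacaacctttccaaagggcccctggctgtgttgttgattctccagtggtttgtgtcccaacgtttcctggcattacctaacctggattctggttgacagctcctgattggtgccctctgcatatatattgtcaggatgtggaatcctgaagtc

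The AGAACA letters were in 3 of the 9 windows, those of PIP (bases -198 to -193 from the start), CYP4Z1 (-117 to -112) and one start of CYP4X1 (-156 to -151), against 12.4% of 35116 RefSeq windows of the same length. PIP and CYP4Z1 also held TTCNNNGAA, at -144 to -136 and -175 to -167, a motif present in 6.57% of all windows. CYP4B1 had TATAAA at -29 to -24, and the other start of CYP4X1 had it on either strand farther upstream, against 10.7% of all windows. That same CYP4X1 window held the single AGGTCA match among the 9, on the opposite strand (12.1% of all windows). SCGB2A2 had TGTTTAC at -102 to -96, which 2.98% of all windows held. CACGTG and TGACGTCA were in 0 of the 9 and in 6.34% and 1.65% of all windows. The 9 windows had 39.2% to 57.6% G and C, each below the median of 58.0% over all windows. These matches describe letters, and nothing on binding was measured.

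**Figure D1:**
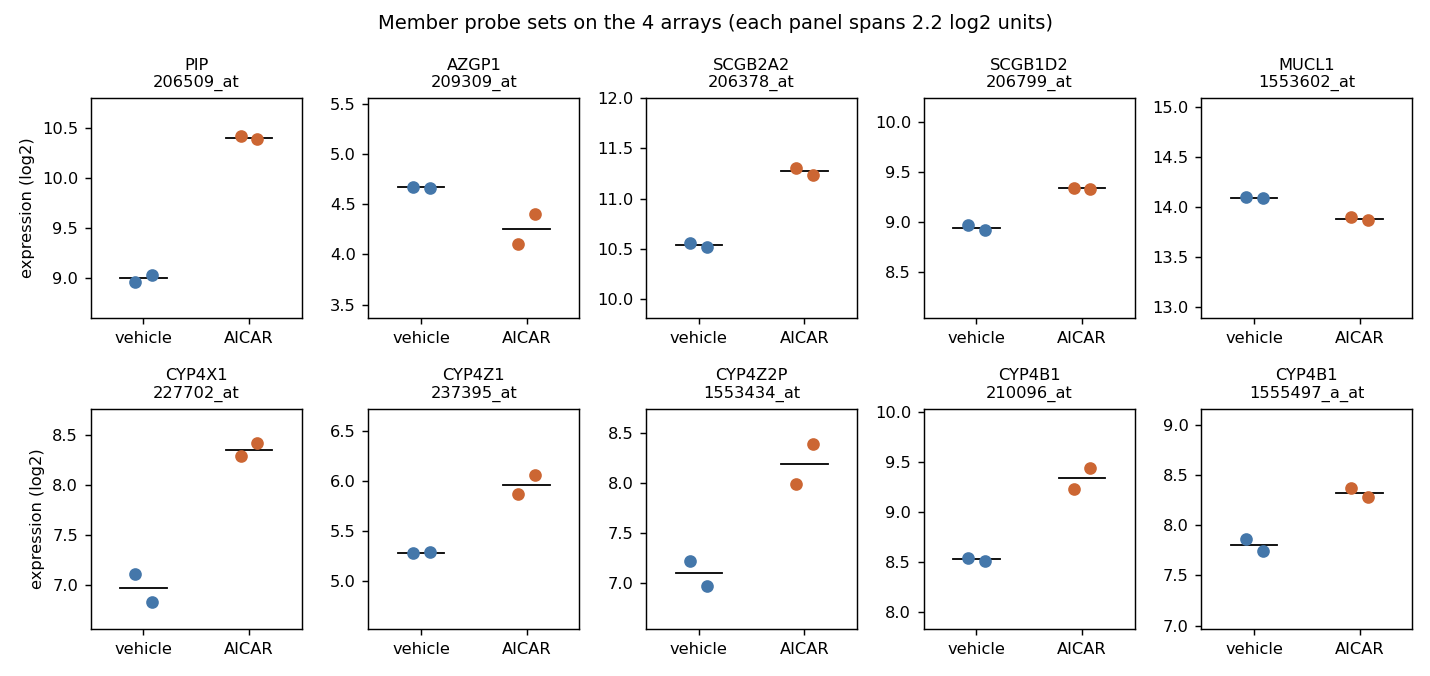
Expression (log2) of the 10 probe sets of the 9 genes on the 2 vehicle arrays (blue points) and the 2 AICAR arrays (orange points), with the mean of each group as a line; each panel spans the same height on the log2 axis around its own centre. In 8 panels both AICAR points lie above both vehicle points, and in the panels of AZGP1 and MUCL1 both lie below.

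PIP and CYP4X1 had the largest differences. In all, both AICAR arrays lay above both vehicle arrays for 8 of the 10 probe sets and below them for 2. Over all non-control probe sets the same was seen in 23.6% (above) and 23.3% (below). Of 9 probe sets bright enough to be tested across the array, 7, from 6 genes, were called higher and 0 lower (limma, adjusted p under 0.05), where 1.43% of the 38229 probe sets tested were called higher and 2.42% lower. The 2 without a call were those of SCGB1D2 and MUCL1, and the remaining probe set, that of AZGP1, was below the bound. The median difference was 0.71 (log2) over the 10 probe sets and 0.0037 over all probe sets tested. Since the genes were chosen on this contrast, nothing is read from these counts. No probe set of the 9 was called in fits without vehicle replicate 1, vehicle replicate 2, AICAR replicate 1 or AICAR replicate 2, in which 0, 0, 1 and 0 of all 38229 probe sets were.

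Among the secreted proteins, PIP, which binds actin and is abundant in apocrine fluids, was at 8.96 and 9.03 (log2) with vehicle and at 10.41 and 10.38 with AICAR. The 2 groups were 1.35 apart at their nearest values, while replicates differed by at most 0.07. The group means differed by 1.40 (log2, SE 0.0803), or 2.64-fold, with SDs of 0.05 for vehicle and 0.02 for AICAR (n = 2 each). It was the 9th highest difference among the probe sets tested.

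SCGB2A2 encodes mammaglobin A and SCGB1D2 encodes lipophilin B, 2 small secretoglobins that are secreted as a complex with each other. SCGB2A2 was at 10.56 and 10.52 (log2) with vehicle and 11.30 and 11.24 with AICAR, a difference of 0.73 (SE 0.0802), or 1.66-fold. For SCGB1D2 the values were 8.97 and 8.92 with vehicle and 9.35 and 9.33 with AICAR, a difference of 0.39 (SE 0.0788), or 1.31-fold. Neither gene's groups overlapped, with gaps of 0.68 and 0.36, and the replicates of both were within 0.07 of each other.

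MUCL1, a small mucin of breast epithelium, ran the other way. Its values were 14.10 and 14.09 (log2) with vehicle and 13.89 and 13.87 with AICAR, near the top of arrays whose values reached 15.34. The difference was -0.21 (log2, SE 0.0776), so vehicle was 1.16-fold higher, with a gap of 0.19 between the groups and at most 0.02 between replicates.

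AZGP1, which encodes zinc-alpha-2-glycoprotein, a secreted protein with the fold of class I histocompatibility molecules, was dim. Its values were 4.67 and 4.67 (log2) with vehicle and 4.11 and 4.41 with AICAR, all below the bound of 5.21. In a fit without the filter the difference was -0.41 (SE 0.116), and the 2 AICAR arrays differed from each other by 0.30, more than the gap of 0.26 between the groups. A further probe set, annotated to both AZGP1 and its pseudogene AZGP1P1 and so not counted here, was at 6.50 and 7.07 with vehicle and 6.81 and 6.94 with AICAR. There the groups overlapped, with a difference of 0.08 (SE 0.178). The 5 secretory genes thus held 3 positive and 2 negative differences, with a median of 0.39 (log2).

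All 5 CYP4 probe sets had positive differences, with a median of 0.81 (log2). CYP4X1, an enzyme known to oxidise the endocannabinoid anandamide, was at 7.11 and 6.82 (log2) with vehicle and 8.29 and 8.41 with AICAR. The groups were 1.18 apart and the vehicle arrays differed by 0.28. The difference of 1.38 (SE 0.116), or 2.61-fold, was the 12th highest among the probe sets tested.

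The CYP4Z1 probe set, for an enzyme that hydroxylates fatty acids within the chain, was at 5.28 and 5.29 (log2) with vehicle and 5.87 and 6.06 with AICAR. Its mean over the 4 arrays lay 0.41 above the dim bound, and the difference was 0.68 (SE 0.0946), or 1.60-fold. The probe set of its pseudogene CYP4Z2P was at 7.23 and 6.97 with vehicle and 7.99 and 8.39 with AICAR, a difference of 1.09 (SE 0.154), or 2.13-fold. Neither pair of groups overlapped. The replicates of CYP4Z2P differed by 0.25 between the vehicle arrays and by 0.40 between the AICAR arrays, the widest AICAR gap of the 10 probe sets. The 2 copies are near-identical, and whether either probe set reads only its own transcript was not tested.

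CYP4B1, which activates several toxins besides hydroxylating fatty acids, was read by 2 probe sets. One was at 8.54 and 8.51 (log2) with vehicle and 9.23 and 9.44 with AICAR, a difference of 0.81 (SE 0.0976), or 1.75-fold. The other was at 7.87 and 7.75 with vehicle and 8.37 and 8.28 with AICAR, a difference of 0.52 (SE 0.0877), or 1.43-fold. Both had the same sign and no overlap between groups. The AICAR arrays were in opposite order on the 2 probe sets.

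**Figure D2:**
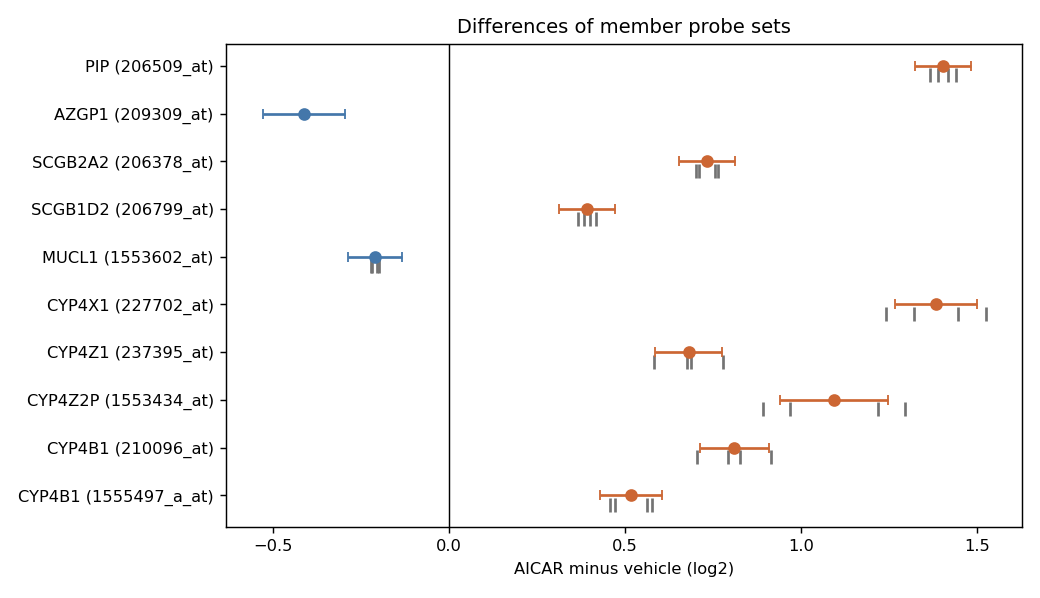
Difference, AICAR minus vehicle (log2), of each of the 10 probe sets, with its standard error as a bar; orange points are positive, blue points negative, and grey ticks give the difference with 1 of the 4 arrays left out (none for AZGP1, which was below the dim bound). The ticks stay on the side of 0 of their point, and those of CYP4Z2P spread most, from 0.89 to 1.29.

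Leaving out 1 array at a time kept the sign of the 9 tested probe sets. The differences then ran from 1.37 to 1.44 for PIP and from 0.70 to 0.77 for SCGB2A2. They ran from 1.24 to 1.53 for CYP4X1, where the vehicle arrays differ most, and from 0.89 to 1.29 for CYP4Z2P. For MUCL1 they were -0.22 to -0.20.

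Relatives that the choice of genes did not include were tested in the same fit, each by its brightest probe set, with Benjamini-Hochberg adjustment over all 38229 probe sets. Of genes represented this way 1.98% were called higher and 1.84% lower, and their median difference was 0.02 (log2). At an unadjusted p under 0.05 (limma), 3225 of the 38229 probe sets were higher and 4669 lower. In a separate fit with 1 probe set per gene, 1775 of 13842 genes were higher and 1841 lower. That share by gene is the nearer one for the unadjusted counts below, which are of genes read by their brightest probe set. Of 8 other secretoglobins 6 were measured and 5 tested, and 1 rose and 0 fell. It was SCGB2A1, mammaglobin B, at 7.49 and 6.96 (log2) with vehicle and 8.12 and 8.42 with AICAR, a difference of 1.05 (SE 0.188, limma adjusted p = 0.0416), or 2.07-fold. Its vehicle arrays differed by more than those of any of the 10 probe sets above, and the groups did not overlap. The other 4 tested did not pass. SCGB3A2, of the airways, differed by 0.49 (interval of 95% confidence, 0.04 to 0.94, adjusted p = 0.205), with 4.75 and 5.35 (log2) on the vehicle arrays and 5.59 and 5.50 on the AICAR arrays. Its vehicle mean, 5.05, was below the dim bound of 5.21, so it entered the test only through its AICAR arrays. The airway genes SCGB1A1 and SCGB3A1 differed by 0.14 and -0.04 (adjusted p = 0.664 and 0.874), and SCGB2B2 by -0.04. SCGB1A1 also lay on both sides of the bound, with means of 5.15 for vehicle and 5.29 for AICAR. The list median was 0.14. Without the filter on dim probe sets SCGB2A1 did not pass (limma adjusted p = 0.0502). With 1 array left out its difference ran from 0.78 to 1.31.

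Of 9 other CYP4 enzymes 8 were measured and 6 tested, and limma called 0 in either direction. Before adjustment 2 had p under 0.05 and a positive difference and 0 a negative one, and a fit with a trend and robust variances also called 0. CYP4F22, which makes the ultra-long acids of the skin barrier, differed by 0.29 on the log2 scale (interval of 95% confidence, 0.06 to 0.52), which did not pass (adjusted p = 0.153). CYP4F2, which hydroxylates arachidonate and vitamin K, differed by 0.24 (adjusted p = 0.276). Their list had a median of 0.17. Of 8 measured partners that pass electrons to P450 enzymes, limma called 0. Before adjustment 0 passed upward and 1 downward, the same as with a trend and robust variances, and the median was 0.05. The 2 largest differences there were -0.31 for the cytochrome b5 of the mitochondrial surface, CYB5B (adjusted p = 0.164), and -0.19 for the b5 reductase CYB5R2 (adjusted p = 0.437).

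Chromosome order brings most of these genes into 2 clusters. On chromosome 1 RefSeq places CYP4B1, CYP4Z2P, CYP4A11, CYP4X1 and CYP4Z1 in this order of starts, with pseudogenes between them. CYP4A11, which lies between CYP4Z2P and CYP4X1, was at 6.59 and 6.57 (log2) with vehicle and 6.66 and 6.60 with AICAR. Its difference of 0.05 (interval of 95% confidence, -0.14 to 0.24, limma adjusted p = 0.751) stood beside 1.09 and 1.38 for the genes on its sides. The other CYP4A11 probe set differed by -0.009. Whether the gene is expressed in these cells, and whether its probe sets read only its transcript, was not tested. On chromosome 11 the order is SCGB1D1, SCGB2A1, SCGB1D2 and SCGB2A2. SCGB1D1 was dim, with a difference of -0.09, and ASRGL1, which follows farther on, differed by -0.03 (adjusted p = 0.916), and by 0.42 on its other probe set.

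**Figure D3:**
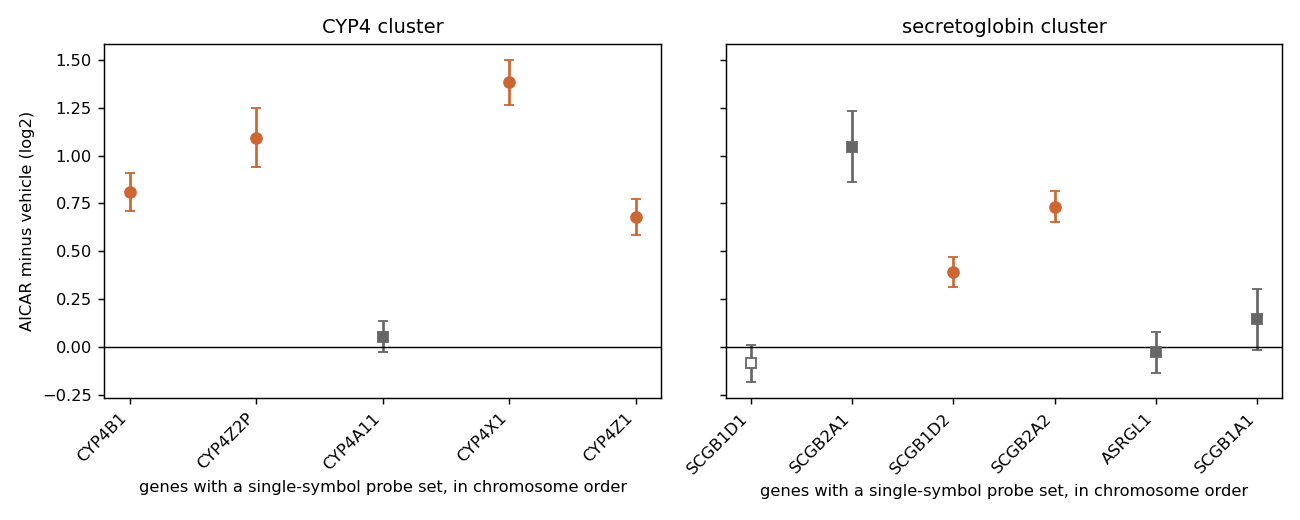
Difference, AICAR minus vehicle (log2, bars show the standard error), of the genes of the CYP4 cluster (left) and the secretoglobin cluster (right) that have a single-symbol probe set, in chromosome order and not to scale; orange circles are the genes described here, grey squares the others, and an open square was below the dim bound. CYP4A11 sits near 0 (0.05) between 2 genes at 1.09 and 1.38, and SCGB2A1 (1.05) sits beside SCGB1D2 (0.39) and SCGB2A2 (0.73).

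Taking the 5 nearest measured genes on either side of each of the 9 gave 51 different neighbours, of which 42 were tested, 3 rose and 1 fell, with a median of 0.04 (log2). Beside SCGB2A1 these were GSTK1, a glutathione transferase of mitochondria and peroxisomes near PIP (0.68, adjusted p = 0.0206), and ATPAF1, an assembly factor of the ATP synthase near CYP4B1 (0.49, adjusted p = 0.0333). The helicase subunit MCM7, near AZGP1, fell by 0.56 (adjusted p = 0.0285). The other probe set of ATPAF1 differed by -0.29, and the average of both did not pass (0.373). With 1 array left out, differences ran from 0.63 to 0.72 for GSTK1, 0.48 to 0.51 for ATPAF1 and -0.61 to -0.52 for MCM7. A group then has 1 array, so no calls are read from those fits. Near MUCL1, the dermcidin gene DCD and the lacritin gene LACRT, which also encode gland secretions, differed by 0.13 and 0.18 (adjusted p = 0.532 and 0.382).

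Of 29 genes linked to the apocrine type of breast cancer 25 were tested, of which 2 rose and 3 fell, with a median of 0.03 (log2). KYNU, the kynureninase of tryptophan breakdown, was at 6.78 and 6.80 (log2) with vehicle and 8.05 and 8.29 with AICAR, a difference of 1.38 (SE 0.104, adjusted p = 0.00922), while its 4 probe sets ranged from 0.18 to 1.38 and their mean was 0.71. TMEM45B, a membrane protein, rose by 0.80 (adjusted p = 0.0165). The medium-chain acyl-CoA synthetase ACSM3 fell by 0.52 (adjusted p = 0.0357) and the dehydrogenase DHRS2 by 0.42 (adjusted p = 0.0480). FGFR4, a growth factor receptor outside the naming rule that completes the 3, fell by 0.40 (adjusted p = 0.0475), with 2 of its 4 probe sets positive. Genes of this list therefore moved in both directions.

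Androgen-responsive genes had 0 of 17 tested members called by limma, with a median of 0.12. Before adjustment 4 passed upward and 1 downward, and with a trend and robust variances 1 and 1 were called. The drug transporter ABCC4 differed by 0.58 (adjusted p = 0.0696, 2 of 4 probe sets positive) and the kinase SGK1 by -0.49 (adjusted p = 0.0530). Hormone receptors and regulators of secretory genes had 0 of 23 called by limma (2 upward and 4 downward before adjustment, and 1 and 4 with a trend and robust variances), with a median of -0.05. The epithelial factor EHF differed by -0.33 (adjusted p = 0.0723) with all 6 probe sets negative and a mean of -0.43 that passed as lower (adjusted p = 0.0361), and the estrogen receptor ESR1 by -0.31 (adjusted p = 0.0911), with 4 of 9 probe sets positive and a mean of -0.04. The forkhead factor FOXA1 and the prolactin receptor PRLR, named for their known roles in mammary secretory cells after their values were seen, differed by 0.03 and 0.15 (adjusted p = 0.884 and 0.389). The 2 probe sets of FOXA1 ran from -0.14 to 0.03 and the 7 of PRLR from -0.16 to 0.15.

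Among 21 tested genes of milk and other exocrine secretions, 1 rose and 2 fell, with a median of 0.12. AGR3, an endoplasmic reticulum protein of secretory epithelium, fell by 0.65 (log2, SE 0.0791, adjusted p = 0.0206), to 9.39 and 9.38 on the AICAR arrays. The membrane mucin MUC1 fell by 0.47 (adjusted p = 0.0485), with 1 of its 3 probe sets positive and a mean of -0.22 that did not pass (0.0753). MUC1 was also the only one of the 14 luminal markers called. Clusterin, CLU, a secreted chaperone, rose by 0.47 (adjusted p = 0.0431), with a mean of 0.30 over its 4 probe sets. The collagen gene COL1A1 was the single call among 14 tested basal, stromal, endothelial and blood cell markers, at -0.63 (adjusted p = 0.0426). Its 5 probe sets ran from -0.63 to 0.13, and their mean, -0.23, did not pass (0.0727). The summed linear signal of those markers was 11.32 and 11.33 (log2) with vehicle and 11.11 and 11.16 with AICAR. Without COL1A1 the sum over the other 18 was 10.61 and 10.55 with vehicle and 10.64 and 10.61 with AICAR, so that gene alone set the direction, and 10 of the 14 tested markers had positive differences.

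Oxygenases and other enzymes that act on arachidonate, other fatty acids and their products had 2 of 16 tested members higher and 0 lower, with a median of 0.14. LTA4H, the hydrolase of the leukotriene pathway, rose by 0.47 (adjusted p = 0.0392) and CYP1B1, a P450 of estrogens and polycyclic compounds, by 0.49 (adjusted p = 0.0458), with all 4 CYP1B1 probe sets positive. PPAR receptors and their targets, which are known to include CYP4A genes, had 0 of 14 called by limma (0 upward and 1 downward before adjustment, and 0 and 1 with a trend and robust variances), with a median of -0.08. The carnitine transferase CPT1A differed by -0.22 on its brightest probe set (adjusted p = 0.192). All 4 of its probe sets were negative, down to -0.61, and their mean, -0.40, passed as lower (adjusted p = 0.0219). The peroxisomal enzyme EHHADH differed by -0.23 (adjusted p = 0.550), but by 0.08 without AICAR replicate 2. Over all 11 lists 153 different genes were tested, of which 6 rose and 6 fell. Without the dim filter 3 of the 12 passed, KYNU, TMEM45B and AGR3. Whether the 12 calls hold with 1 array left out cannot be decided, as a group then has 1 array.

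**Figure D4:**
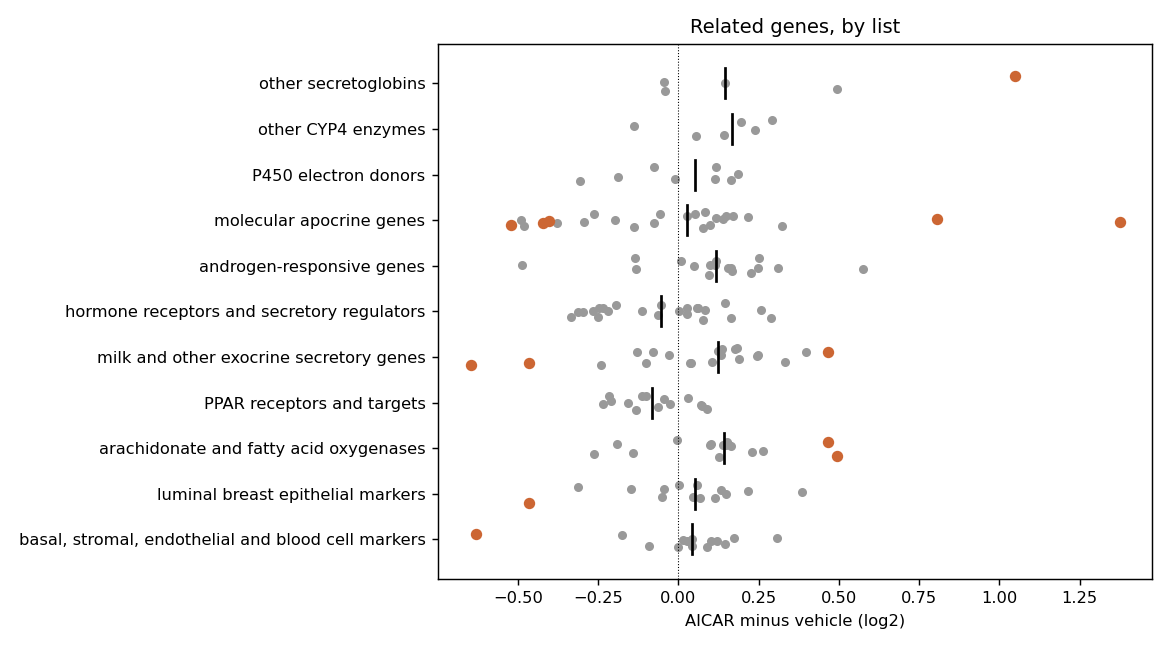
Difference, AICAR minus vehicle (log2), of every tested gene of the 11 lists of related genes, 1 row per list; orange points passed an adjusted p under 0.05, grey points did not, the short black line is the list median, and vertical position within a row has no meaning. The secretoglobin SCGB2A1 (1.05) and KYNU (1.38) lie farthest to the right, and the list medians lie between -0.08 and 0.17.

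Over the 4 arrays, each value taken minus the gene's vehicle mean, the 5 of 16168 other genes closest to PIP were KYNU, the intermediate filament VIM, the RNA-binding protein SAMD4A, the antisense RNA KANSL1-AS1 and the histone gene H2AC8. Their Euclidean distances from PIP were 0.20 to 0.31 (log2), and CYP4X1 was at 0.28. Several of these genes had other probe sets with much smaller differences, 0.05 for VIM, 0.12 for KANSL1-AS1, and and as low as 0.10 for SAMD4A and 0.18 for KYNU, which have 4 probe sets each. Closest to SCGB2A2 were the long non-coding RNA UCA1 (0.0282), TCTA, the secreted lectin ZG16B, RIPOR3 and the long non-coding RNA DSCAM-AS1 (0.0655). The other probe set of RIPOR3 differed by 0.10, against 0.72 for the one used. CYP4Z1 was at 0.20 from SCGB2A2, with 52 of the other genes closer, and the nearer CYP4B1 probe set at 0.22, with 65 closer. With 4 arrays in 2 groups this measure mostly reads the size of the AICAR difference.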

How the data were processed

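Per the submitters' processing notes Affymetrix Expression Console was used. The deposited values are log2 expression per probe set, normalized by the authors, and for its version, summarization and background correction the sources used here give nothing. Summarization can compress differences of dim probe sets. Values were used as deposited. Platform annotation gave 41097 probe sets 1 symbol and 1801 several, and 41043 symbols were updated through Entrez IDs (RefSeq, GRCh38.p14).

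Of 54613 non-control probe sets, the 38229 with a mean at or above the 30th percentile entered the two-sided moderated test of limma 3.58.1 (R 4.3.3; lmFit, then eBayes with no trend) with Benjamini-Hochberg adjustment over all of them; called, rose and fell mean an adjusted p under 0.05. Array number limits precision: the median SE was 0.0912 (log2), and an exact permutation test of 2 against 2 arrays cannot go below 0.333. The fit was also run on simulated data with independent normal errors drawn from its own variance model. Such a run cannot show whether that model holds for these arrays, and nothing is read from it.

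The 9 genes and the 11 lists (200 genes, 13 of them in more than 1 list) were chosen with earlier results of these data known. Genes named from a list are up to 4 called members with the largest difference, or 2 where none was called. Neighbours named are the called ones, and like genes the 5 nearest. CYP4A11, SCGB1A1, SCGB1D1, SCGB2B2, SCGB3A1, SCGB3A2, ASRGL1, DCD, LACRT, FGFR4, FOXA1 and PRLR fall outside this rule and were chosen after their values were seen. Alternatives were no filter or the 50th percentile, quantile normalization, median centring, a trend with robust variances, 1 probe set or the mean per gene, an adjusted p under 0.1, at least 1.5-fold, a block for the replicate number, and fits that left out 1 array.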

Additional observations from a re-analysis of the deposited data

How the results depend on the processing

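Every alternative fit kept the sign of the 9 tested probe sets wherever they were tested. Main counts were 7 higher and 0 lower for these probe sets, 6 and 6 for the listed genes, and 3 and 1 for the neighbours. Counts of the 7 stayed at 6 to 8 outside the fits with 3 arrays, and with a trend and robust variances 1 probe set, that of MUCL1, was called lower. Listed genes called higher and lower were 2 and 1 without the filter, 7 and 10 at the 50th percentile, 11 and 19 with a trend and robust variances, 7 and 13 with 1 probe set per gene, 6 and 12 with the mean of probe sets, 8 and 13 at an adjusted p under 0.1, and 3 and 2 at 1.5-fold. Over all probe sets, 545 were called higher and 924 lower in the main test, 327 and 485 without the filter, 886 and 1506 at the 50th percentile, 1603 and 2812 with a trend and robust variances, 1230 and 2090 at an adjusted p under 0.1, 296 and 419 at 1.5-fold, and 322 and 509 with the replicate block. In the fits by gene, 641 of all 13842 genes were called higher and 718 lower with 1 probe set per gene. With the mean of probe sets 551 and 692 of 13842 were. Neighbours called lower were 3 at the 50th percentile, with 1 probe set per gene, with the mean and at an adjusted p under 0.1, 5 with a trend, and 0 at 1.5-fold. Leaving out any array gave 0 to 0 calls in all 3 sets and both directions (limma). In those fits the array left alone in its group is assumed to vary like the other group, so they cannot decide on single genes. At an unadjusted p under 0.05, the main fit (limma) had 23 listed genes higher and 18 lower, and 6 neighbours each way. Over all 38229 probe sets it had 3225 higher and 4669 lower. With 1 probe set per gene, 20 listed genes were higher and 20 lower at that threshold, against 1775 and 1841 of all 13842 genes. EHHADH turned to 0.0807 without AICAR replicate 2, and was -0.5475 without AICAR replicate 1. With the replicate block, 6 of the 9 probe sets were called higher, 2 listed genes higher and 2 lower, and 1 neighbour each way. The labels give the groups the same replicate numbers. Deviations of same-numbered arrays from their group means had r = -0.08 over probe sets, and whether those arrays were handled together was not tested. The causes of these shifts were not tested. All differences are relative to the signal each probe set gives. Those of AZGP1, CYP4Z1, SCGB3A2 and SCGB1A1, among others, come from values near or below the dim bound.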

Other observations

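Between the 2 AICAR arrays, replicate 1 was the higher for PIP, SCGB2A2, SCGB1D2 and MUCL1, by 0.02 to 0.07 (log2). Replicate 2 was the higher for CYP4X1, CYP4Z1, CYP4Z2P and the brighter CYP4B1 probe set, by 0.12 to 0.40, and for AZGP1, below the dim bound, by 0.30. The dimmer CYP4B1 probe set was 0.09 lower on replicate 2. With 2 arrays this was not tested.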
